A study of Homo sapiens with 12 samples.

Results

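The genes described here make, desaturate, activate, store and burn fatty acids. They are 37 named genes of fatty acid synthesis, desaturation, activation, glycerolipid assembly, lipid storage and beta oxidation, with 3 transcriptional regulators; fatty acid elongases are not among them. They form a list of names by pathway, with no threshold on measured values, and all 37 are among the 36137 genes of the deposited count table. All 37 also had enough counts to be tested, as had 18468 genes in all. The cells were LNCaP, a prostate cancer line that was established from a lymph node metastasis and responds to androgen. Every culture had been transfected for 48 h, serum starved for 12 h and then treated for 24 h. One pair of groups received a non-specific siRNA, with ethanol as vehicle or with 2.5 nM dihydrotestosterone (DHT), a potent natural androgen. The other pair received an siRNA against PXN, the gene of the focal adhesion adaptor paxillin, again with ethanol or with 2.5 nM DHT. Each of the 4 groups held 3 libraries. The labels do not say whether replicates were separate cultures, so p-values measure the spread between these libraries, which may be technical.

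Fatty acid synthesis turns citrate into cytosolic acetyl-CoA, then into malonyl-CoA and, on fatty acid synthase, into palmitate. Desaturases place double bonds in the chain, acyl-CoA synthetases activate it with coenzyme A, and acyltransferases and lipin phosphatases build triglyceride and phospholipid precursors. In mitochondria, beta oxidation shortens the chain again after the carnitine shuttle, which includes the carnitine palmitoyltransferases, has carried it in. Synthesis genes are classic targets of the transcription factor SREBP-1, the product of SREBF1. In prostate cancer cells, androgen is known to stimulate lipid synthesis.

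Library totals were 34321000 to 38633456 counts, and 1 CPM (counts scaled to a common library size after TMM) stood for 33.65 to 38.2 counts. PXN itself, read first as a check of the labels, lay at 112, 106 and 108 CPM with non-specific siRNA and vehicle and at 15.2, 21.2 and 14.9 CPM with PXN siRNA and vehicle. Under DHT it lay at 113, 99.7 and 104 CPM and at 19.96, 18.1 and 16.6 CPM, so the libraries of the 2 siRNAs did not overlap. Mitochondrially encoded genes took 4.69% to 7.55% of the counts with non-specific siRNA and 8.13% to 8.95% with PXN siRNA. The summed level of 8 luminal prostate markers, all of them detected, was 3644 to 4229 CPM with non-specific siRNA and vehicle and 2386 to 2794 CPM with PXN siRNA and vehicle. Under DHT it was 6355 to 6820 CPM and 2985 to 3548 CPM. Markers of basal cells, leukocytes, adipocytes and hepatocytes summed to at most 1.13 CPM a list in any library. A stromal list of 5 genes summed to 25.6 to 32.8 CPM with non-specific siRNA and 36.1 to 44.1 CPM with PXN siRNA, and an endothelial list of 2 genes to 12.8 to 18.9 and 14.8 to 22.1 CPM. These lists hold only markers that the deposited table names, and no gene of that table was at 0 in all 12 libraries. Markers absent from the table were left out, so the lists cannot show that a marker went undetected. The part of these marker levels and of the mitochondrial share in the results was not tested.

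Before any treatment was compared, the members differed widely in level. Per kb of merged exons, in the vehicle-treated group with non-specific siRNA, SCD was highest at 568 ± 20.4 CPM per kb (mean ± SD, n = 3). SCD encodes the main stearoyl-CoA desaturase, which makes oleate from stearate. FASN, fatty acid synthase, followed at 323 ± 44.3 CPM per kb and ACSL1, a long-chain acyl-CoA synthetase, at 162 ± 10.3 CPM per kb. ACLY, which cleaves citrate to acetyl-CoA, lay at 143 ± 4.13 CPM per kb and FADS2, the delta-6 desaturase, at 133 ± 7.46 CPM per kb. The ranges of mean ± SD of ACLY and FADS2 overlapped, while those of SCD, FASN and ACSL1 each lay clear of the next gene. ACADVL, the very long-chain acyl-CoA dehydrogenase, led the oxidation genes at 109.9 ± 4.91 CPM per kb. At the low end stood MGLL, monoacylglycerol lipase, at 0.865 ± 0.0578 CPM per kb and ACSL5, an acyl-CoA synthetase, at 0.165 ± 0.0216 CPM per kb. PLIN2, a lipid droplet coat protein, and FABP5, a fatty acid binding protein, were lowest, at 0.0757 ± 0.0174 and 0.0642 ± 0.0230 CPM per kb. These last members had fewer than 50 counts in every library, and FABP5 has near-identical pseudogene copies, so its value is uncertain.

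**Figure D1:**
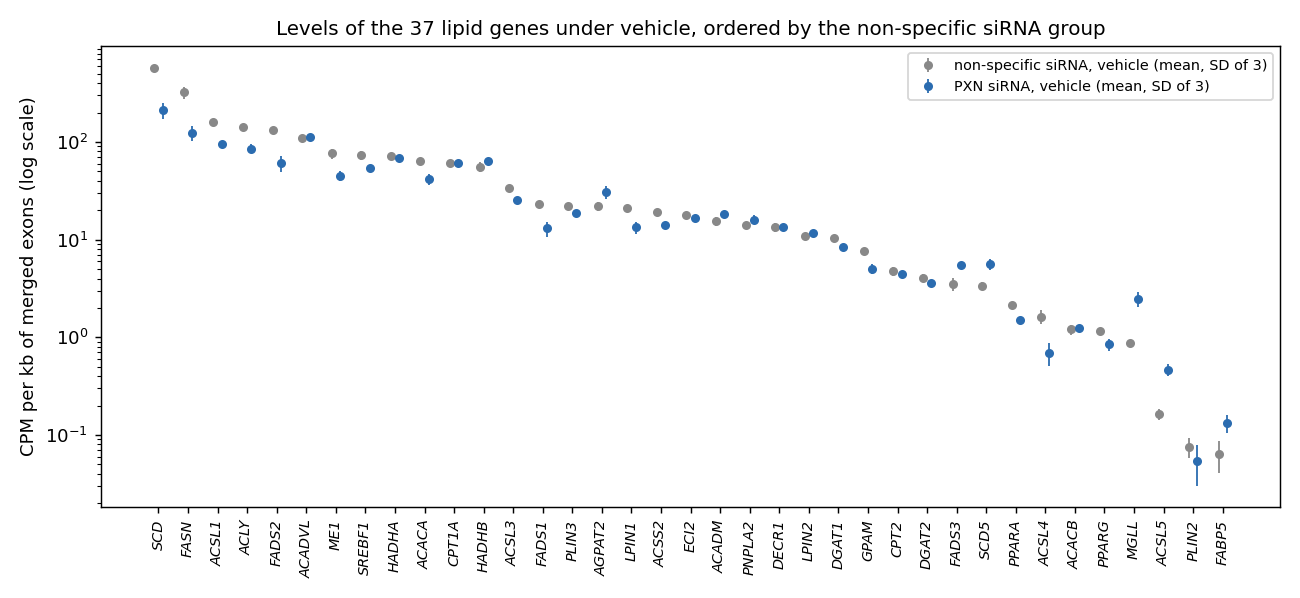
Level of each of the 37 lipid genes under vehicle, in CPM per kb of merged exons on a log scale, with non-specific siRNA (grey) and PXN siRNA (blue). Points are means and bars the SD of 3 libraries. SCD and FASN lead the order, and PLIN2 and FABP5 end it below 0.1 CPM per kb with non-specific siRNA.

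The first comparison asked how these genes differed between PXN siRNA and non-specific siRNA when no androgen was added. Genes of synthesis, of the abundant desaturases and of the regulators were lower with PXN siRNA, and most beta oxidation genes did not pass the test. Of the 37 members 18 fell, 7 rose and 12 did not pass the test (quasi-likelihood test of edgeR, p adjusted by Benjamini and Hochberg under 0.05). Over all tested genes 26.3% fell and 23.9% rose, so the share of members that fell was above that background and the share that rose was not. The median log2 fold change of the members was -0.23, against 0.018 over all tested genes. Among the members past the test, 4 fell and 2 rose by at least 2-fold. The share of all tested genes with changes of that size was not counted, so these counts have no background. In bulk RNA fewer cells of a type and less RNA per cell cannot be told apart.

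Under DHT the same question was asked in 6 other libraries. With PXN siRNA 19 of 37 members fell, 6 rose and 12 did not pass the test, against 26.7% and 25.0% of all tested genes. Their median log2 fold change was -0.26, and that of all tested genes was 0.027. The 2 comparisons share no library: 18 members fell in both, 6 rose in both, and none was called in opposite directions. ACADM passed the test only under vehicle and ECI2 only under DHT; for both genes the interaction of siRNA and DHT did not pass (adjusted p = 1.00 for each).

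Level moved with direction over all genes, and the members are unevenly spread over levels. Among the 63 genes whose mean reached 1000 CPM, 55.6% fell under vehicle, and of the 2362 genes between 100 and 1000 CPM 47.8% fell. Of the members, 3 lay in the first of these ranges and all 3 fell, and 12 lay in the second and 8 fell. The 17 members between 10 and 100 CPM split into 5 that fell and 5 that rose, where 37.9% of all genes in that range fell and 24.1% rose. The part of level in the members' counts was not tested. Upper-quartile scaling, in place of TMM, raised the median of all genes to 0.12 under vehicle and 0.13 under DHT. With it 10 members rose and 16 fell under vehicle, against 30.7% and 20.3% of all genes, and 10 rose and 18 fell under DHT, against 32.2% and 20.8%.

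**Figure D2:**
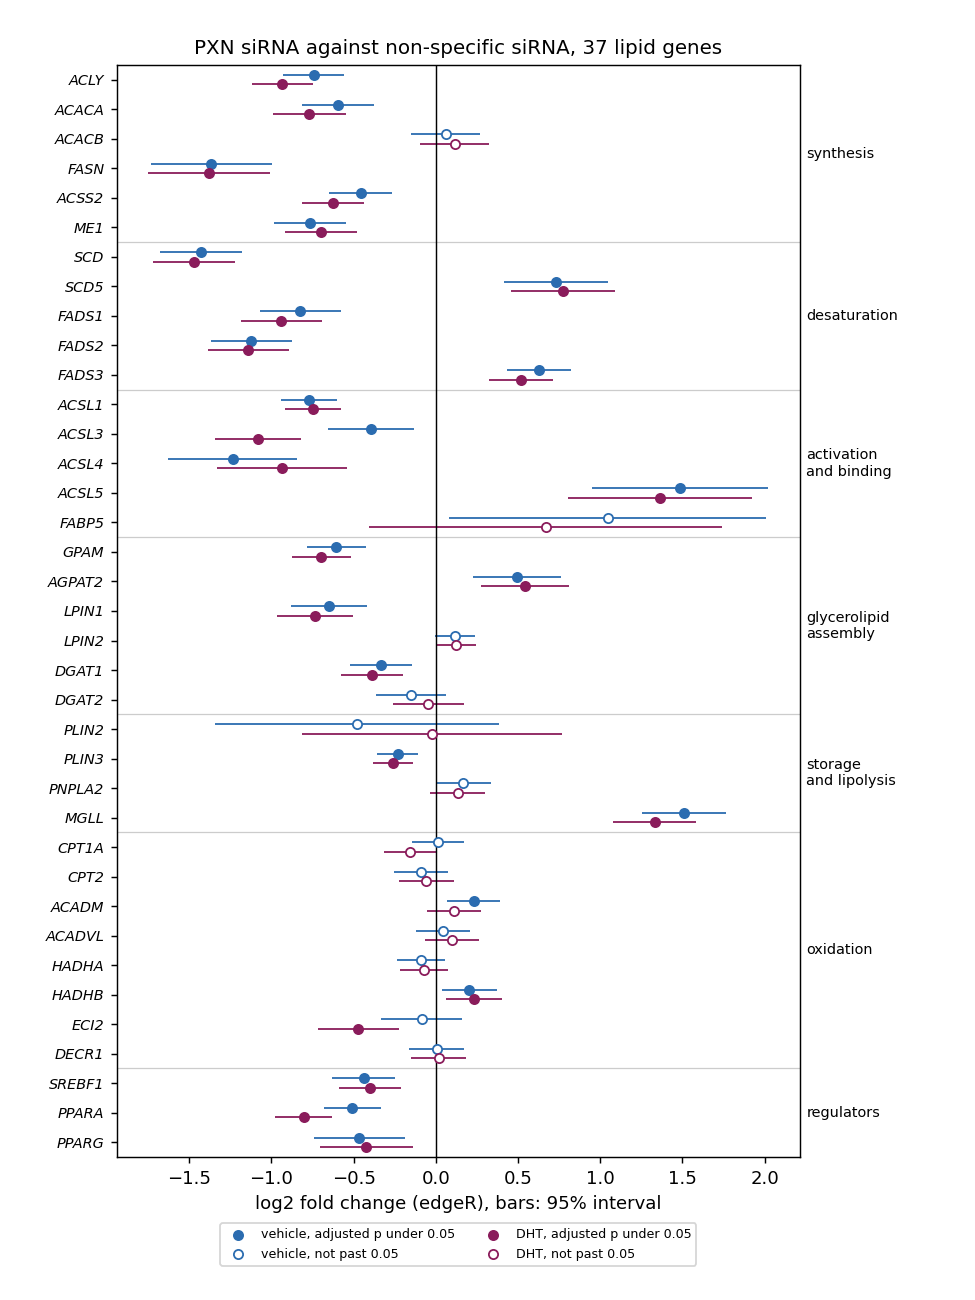
Log2 fold change of PXN siRNA against non-specific siRNA for the 37 genes by role, under vehicle (blue) and under DHT (purple), with 95% intervals from the fit. Filled points passed the test at an adjusted p under 0.05. Synthesis genes other than ACACB lie left of 0, the 3 regulators do too, and MGLL and ACSL5 lie farthest right among the members that passed.

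Fatty acid synthesis genes fell with PXN siRNA, 5 of 6 under vehicle and the same 5 under DHT. Of all tested genes 26.3% fell under vehicle and 26.7% under DHT. The part of level, given above, in this count was not tested. FASN showed the largest change of the role. Its CPM under vehicle was 2546, 3316 and 3200.3 with non-specific siRNA and 936, 1277 and 1303 with PXN siRNA. Under DHT it was 3136, 4541 and 4119 and 1174, 1753 and 1601. Replicate 1 was the lowest library of each group, yet the groups of the 2 siRNAs did not overlap under either treatment. FASN thus fell 2.58-fold under vehicle (log2 fold change -1.37 ± 0.17, SE, adjusted p = 1.62e-05) and 2.60-fold under DHT (-1.38 ± 0.17, 1.34e-05). FASN lies at chr17:82078333-82098332 on the minus strand (GRCh38, GENCODE 29).

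ACLY, the source of cytosolic acetyl-CoA, lay at 733, 738 and 773 CPM with non-specific siRNA and 399, 492 and 451 CPM with PXN siRNA under vehicle. Under DHT it lay at 865, 931 and 935 and 421, 514 and 494 CPM, and no library of one siRNA reached the other siRNA's range. The log2 fold change was -0.74 ± 0.087 (SE) under vehicle and -0.93 ± 0.087 under DHT (adjusted p = 7.75e-06 and 9.72e-07). ACACA, acetyl-CoA carboxylase 1, which makes the malonyl-CoA used for synthesis, went from 781, 872 and 819.9 to 491, 625 and 520.2 CPM under vehicle. Under DHT ACACA went from 972, 1132 and 1134 to 554, 699 and 646 CPM. All 6 of its PXN siRNA libraries lay below all 6 with non-specific siRNA, and the log2 fold changes were -0.60 ± 0.10 and -0.77 ± 0.10 (adjusted p = 0.000249 and 2.58e-05). ME1, malic enzyme, a source of the NADPH used in synthesis, fell by a similar size. It went from 246, 237 and 292 to 133, 157 and 166 CPM under vehicle (-0.76 ± 0.10, adjusted p = 2.77e-05) and from 224, 241 and 274 to 138, 155 and 162 CPM under DHT (-0.70 ± 0.10, 5.58e-05). ACSS2, which makes acetyl-CoA from acetate, fell from 104 ± 7.39 to 75.7 ± 6.38 CPM under vehicle (-0.46 ± 0.089) and from 117 ± 9.41 to 75.98 ± 7.89 CPM under DHT (-0.62 ± 0.089).

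The exception was ACACB, acetyl-CoA carboxylase 2, the form at the outer mitochondrial membrane whose malonyl-CoA restrains carnitine palmitoyltransferase. Its CPM was 15.9, 19.9 and 16.6 with non-specific siRNA and 17.2, 18.3 and 19.2 with PXN siRNA under vehicle, and the groups overlapped. The log2 fold change was 0.061 ± 0.098 with a 95% interval of -0.15 to 0.27 (adjusted p = 0.632), and under DHT it was 0.11 ± 0.099 (0.355). Counted per kb, ACACB was 1.86% of the summed level of both carboxylases with non-specific siRNA under vehicle and 2.94% with PXN siRNA (SD 0.126 and 0.338 percentage points, n = 3). Under DHT the shares were 1.38% and 2.51%. The summed level of the 6 synthesis genes was 4973 ± 480.4 CPM with non-specific siRNA and 2411 ± 321 CPM with PXN siRNA under vehicle.

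All 5 desaturation genes passed the test under both treatments, but in 2 directions. The abundant SCD, FADS1 and FADS2 fell, and their low-expressed paralogs SCD5 and FADS3 rose. The shares over all tested genes were 26.3% lower and 23.9% higher under vehicle, and 26.7% and 25.0% under DHT. SCD lay at 3149, 3052 and 2930.3 CPM with non-specific siRNA and at 937, 1363 and 1092 CPM with PXN siRNA under vehicle. Under DHT the values were 3384, 3095 and 2911 and 1026, 1222 and 1140.5 CPM. The lowest library with non-specific siRNA was above every library with PXN siRNA, and the fall was 2.69-fold under vehicle (-1.43 ± 0.12, adjusted p = 3.37e-07) and 2.77-fold under DHT (-1.47 ± 0.12, 2.75e-07).

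SCD5, the second human stearoyl-CoA desaturase, moved the other way. Its CPM under vehicle was 15.6, 12.8 and 15.05 with non-specific siRNA and 26.7, 20.5 and 24.8 with PXN siRNA. Under DHT it was 15.4, 10.5 and 12.5 and 25.1, 18.2 and 22.2. Replicate 2 was the lowest library of each group, and the groups of the 2 siRNAs still did not overlap. SCD5 rose 1.66-fold under vehicle (0.73 ± 0.15, adjusted p = 0.000825) and 1.71-fold under DHT (0.77 ± 0.15, 0.000545). Per kb, SCD5 was 0.590% of the summed level of SCD and SCD5 with non-specific siRNA under vehicle and 2.68% with PXN siRNA, and 0.506% and 2.39% under DHT. SCD remained the main form in every library, with SCD5 at most 3.44%.

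The promoters of this pair are shown because the genes encode the same enzyme activity and moved in opposite directions. Each window runs from 250 bases before to 50 bases after the RefSeq start (GRCh38.p14), is printed 5′ to 3′ on the gene's strand, and has CCAAT boxes, on either strand, in capitals. SCD lies at chr10:100346983-100347282 on the plus strand and SCD5 at chr4:82798747-82799046 on the minus strand.
SCD: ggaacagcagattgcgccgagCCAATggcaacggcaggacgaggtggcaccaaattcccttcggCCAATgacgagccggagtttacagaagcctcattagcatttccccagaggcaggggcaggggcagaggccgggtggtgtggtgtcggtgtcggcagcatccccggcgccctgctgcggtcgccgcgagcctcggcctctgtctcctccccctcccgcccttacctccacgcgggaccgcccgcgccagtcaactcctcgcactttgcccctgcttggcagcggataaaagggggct
SCD5: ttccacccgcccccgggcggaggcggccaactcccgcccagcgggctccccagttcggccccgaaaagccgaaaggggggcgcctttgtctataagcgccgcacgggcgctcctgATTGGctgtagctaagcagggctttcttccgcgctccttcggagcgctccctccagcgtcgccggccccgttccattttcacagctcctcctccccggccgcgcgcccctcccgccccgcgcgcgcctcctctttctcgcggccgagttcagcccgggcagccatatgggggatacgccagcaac
SCD has 2 CCAAT boxes on its own strand and SCD5 has 1, on the other strand. Both windows also hold the GC box GGGCGG, at 2 places in SCD and 4 in SCD5, both strands counted. Neither holds the letters TCACNCCAC of a sterol response element or AGAACA of the androgen receptor.

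FADS2 lay at 1416, 1557 and 1413 CPM with non-specific siRNA and 552, 799.5 and 662 CPM with PXN siRNA under vehicle. Under DHT it lay at 1569.8, 1569 and 1477 and 615, 777 and 702 CPM. Its groups did not overlap, and it fell 2.18-fold (-1.12 ± 0.12, adjusted p = 2.48e-06) and 2.20-fold (-1.14 ± 0.12, 2.06e-06). FADS1, the delta-5 desaturase of polyunsaturated fatty acids, went from 218, 252 and 237 to 107, 152 and 139.7 CPM under vehicle and from 253, 276 and 275 to 119.5, 148 and 151 CPM under DHT. No FADS1 library with PXN siRNA reached the range of non-specific siRNA, and the log2 fold changes were -0.82 ± 0.11 and -0.94 ± 0.11 (adjusted p = 3.80e-05 and 1.08e-05). FADS3, the third gene of the cluster, rose instead. It went from 22.5, 25.4 and 18.5 to 35.1, 32.1 and 35.6 CPM under vehicle (0.63 ± 0.091, adjusted p = 5.51e-05) and from 23.7, 24.00 and 23.5 to 34.5, 34.3 and 33.2 CPM under DHT (0.52 ± 0.091, 0.000253). FADS3 made up 2.21% of the summed level of the 3 FADS genes per kb with non-specific siRNA under vehicle and 7.03% with PXN siRNA, and 2.23% and 6.63% under DHT. The 3 genes are neighbours on chromosome 11: FADS1 at chr11:61799625-61829318 (minus), FADS2 at chr11:61792980-61867354 (plus) and FADS3 at chr11:61873519-61892051 (minus). FADS1 and FADS2 share 490 exon bases on opposite strands, and FADS2 shares 49 with FEN1 on its own strand. FEN1 averaged 62.0 CPM with non-specific siRNA and 20.5 CPM with PXN siRNA under vehicle. The sources used here do not give how reads from shared bases were assigned.

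**Figure D3:**
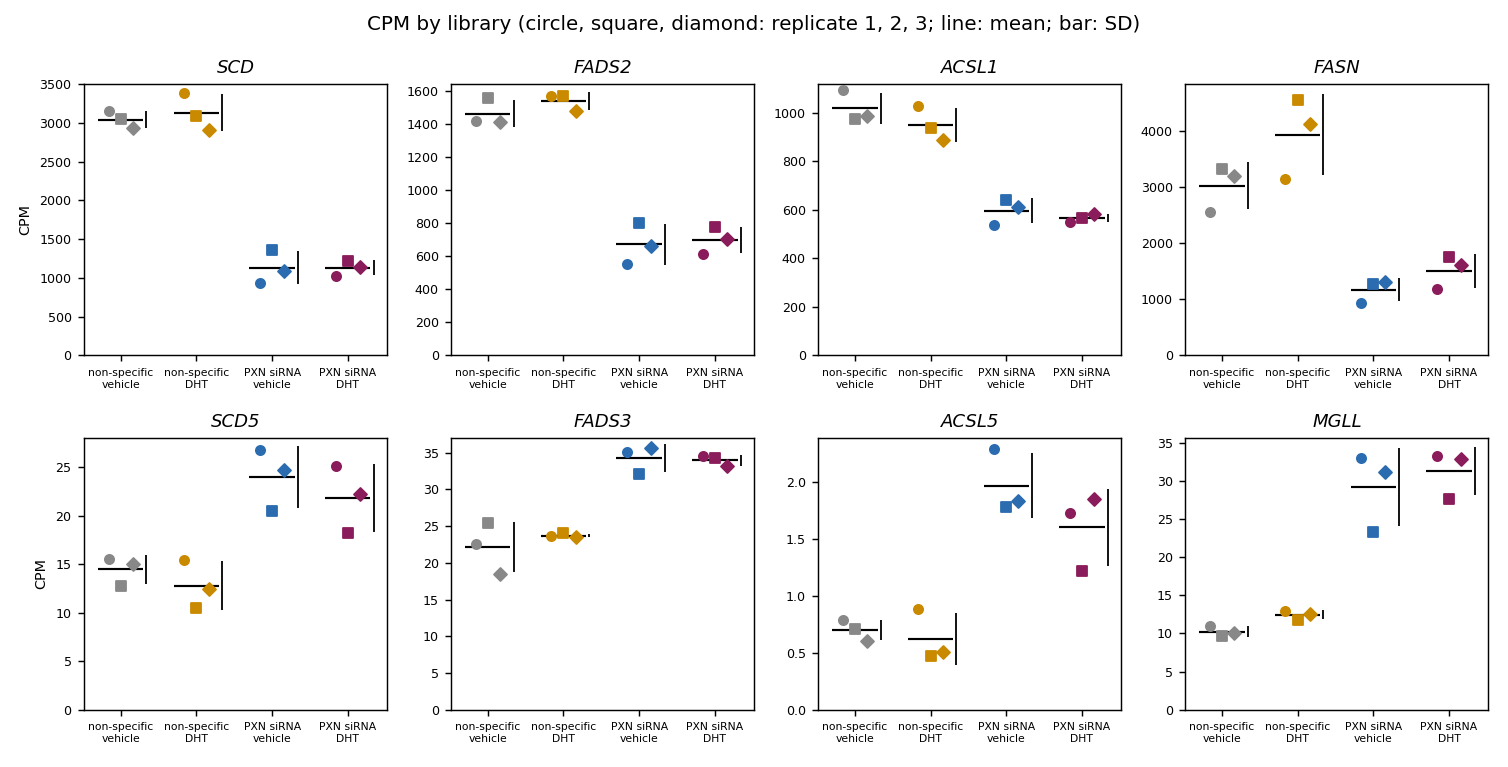
CPM in each library for 4 abundant members that were lower with PXN siRNA (top) and 4 low members that were higher (bottom). Columns are the 4 groups, symbols the 3 replicates, lines the means and vertical bars the SD; every axis starts at 0. In all 8 panels the PXN siRNA libraries lie clear of the non-specific siRNA libraries.

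Of the activation and binding genes, ACSL1, ACSL3 and ACSL4 fell and ACSL5 rose under both treatments. Among all tested genes 26.3% fell and 23.9% rose under vehicle, and 26.7% and 25.0% under DHT. ACSL1, the most abundant long-chain acyl-CoA synthetase here, fell. It lay at 1092, 973 and 988 CPM with non-specific siRNA and 538, 639 and 610.1 CPM with PXN siRNA under vehicle, and at 1026, 937 and 886 and 549, 567 and 582 CPM under DHT. The gap between the siRNAs was wider than the spread within either, and the log2 fold changes were -0.77 ± 0.079 and -0.75 ± 0.079 (adjusted p = 2.46e-06 and 3.18e-06). ACSL4, which prefers arachidonate, was low and fell further. Its CPM was 9.27, 9.76 and 12.3 and 3.11, 5.33 and 4.86 under vehicle (-1.24 ± 0.18, adjusted p = 6.45e-05), and 8.29, 7.20 and 9.57 and 3.72, 4.65 and 4.72 under DHT (-0.93 ± 0.18, 0.000682). ACSL5 rose, from 0.787, 0.703 and 0.604 to 2.29, 1.78 and 1.83 CPM under vehicle and from 0.880, 0.471 and 0.505 to 1.72, 1.22 and 1.85 CPM under DHT. Its groups did not overlap, and the rise was 2.81-fold (1.49 ± 0.25, adjusted p = 0.000196) and 2.57-fold (1.36 ± 0.26, 0.000513). These values rest on 17 to 84 counts a library. ACSL5 shares 144 exon bases with ZDHHC6 on the opposite strand, which averaged 44.1 CPM with non-specific siRNA and 27.3 CPM with PXN siRNA under vehicle. FABP5 had 3 to 12 counts a library and did not pass the test under vehicle (1.04 ± 0.45, adjusted p = 0.0681) or DHT (0.67 ± 0.50, 0.283). It passed under vehicle with upper-quartile scaling (1.14, 0.0463).

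ACSL3, the acyl-CoA synthetase of the endoplasmic reticulum and lipid droplets and a known androgen-induced gene, was lower with PXN siRNA under both treatments. Under vehicle it lay at 257, 244 and 229.5 CPM with non-specific siRNA and 183, 199 and 173 CPM with PXN siRNA. Under DHT it lay at 380.3, 539 and 568 and 207, 248 and 248 CPM. The groups did not overlap in either case, and the fall was 1.32-fold under vehicle (-0.40 ± 0.12, adjusted p = 0.0145) and 2.12-fold under DHT (-1.08 ± 0.12, 5.73e-06). The call under vehicle was lost with upper-quartile scaling (-0.30, adjusted p = 0.0583). The test of the difference between these effects is given with the DHT results.

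Glycerolipid assembly genes gave 3 that fell, 1 that rose and 2 that did not pass, the same genes under both treatments. The shares of all tested genes were 26.3% lower and 23.9% higher under vehicle, and 26.7% and 25.0% under DHT. GPAM, the mitochondrial glycerol-3-phosphate acyltransferase that starts triglyceride synthesis, went from 79.6, 74.4 and 71.1 to 45.1, 56.2 and 46.5 CPM under vehicle and from 80.8, 78.6 and 71.02 to 45.2, 50.4 and 46.7 CPM under DHT. No library of the 2 siRNAs overlapped, and the log2 fold changes were -0.61 ± 0.084 and -0.70 ± 0.084 (adjusted p = 3.62e-05 and 9.98e-06). LPIN1, a phosphatidate phosphatase that is also a transcriptional coactivator, fell to a like extent. It lay at 244, 254 and 249 and 132, 169 and 175 CPM under vehicle (-0.65 ± 0.11, adjusted p = 0.000175), and at 268, 304 and 295 and 146, 184 and 191 CPM under DHT (-0.73 ± 0.11, 5.78e-05). DGAT1, which adds the last acyl chain of triglyceride, fell less, from 44.6, 45.4 and 39.9 to 33.5, 36.7 and 33.1 CPM under vehicle (-0.33 ± 0.088, 0.00608) and from 53.3, 44.9 and 42.6 to 36.2, 38.5 and 32.9 CPM under DHT (-0.39 ± 0.088, 0.00193).

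AGPAT2, which acylates lysophosphatidate, was the member of this role that rose. It went from 44.04, 38.2 and 36.02 to 62.2, 46.1 and 58.3 CPM under vehicle, where the closest libraries were 44.04 and 46.1 CPM, and from 45.8, 35.3 and 35.5 to 63.4, 54.6 and 52.1 CPM under DHT. The log2 fold changes were 0.49 ± 0.12 and 0.54 ± 0.12 (adjusted p = 0.00420 and 0.00206). DGAT2, the second enzyme of the last step, did not pass the test under vehicle (-0.15 ± 0.10, 95% interval -0.36 to 0.063) or DHT (-0.045 ± 0.10, -0.26 to 0.17). LPIN2, a second lipin, had 0.12 ± 0.057 under vehicle (adjusted p = 0.102) and 0.12 ± 0.057 under DHT (0.0809). With the replicate number as a block, LPIN2 passed under vehicle (0.12, adjusted p = 0.0464), where 28.2% of all genes rose. It also passed, as higher, with upper-quartile scaling (0.22, 0.0047 under vehicle and 0.23, 0.00318 under DHT) and with a mean of at least 1 CPM required (0.16, 0.0227 and 0.16, 0.0188).

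Among storage and lipolysis genes, 1 rose, 1 fell and 2 did not pass the test under either treatment. Of all tested genes 23.9% rose and 26.3% fell under vehicle, and 25.0% and 26.7% under DHT. With 4 genes, these counts do not set the role apart from that background. MGLL, which releases the last fatty acid of a monoacylglycerol, rose most of all members that passed under vehicle. Its CPM was 11.02, 9.71 and 10.01 with non-specific siRNA and 33.1, 23.4 and 31.2 with PXN siRNA under vehicle, and 12.9, 11.8 and 12.6 and 33.2, 27.7 and 32.9 under DHT. All 6 PXN siRNA libraries lay above all 6 others, and the rise was 2.85-fold (1.51 ± 0.12, adjusted p = 2.75e-07) and 2.52-fold (1.33 ± 0.12, 6.79e-07). MGLL lies at chr3:127689062-128052190 on the minus strand (GRCh38, GENCODE 29). PLIN3, a coat protein of young lipid droplets, fell slightly, from 64.1, 60.04 and 62.4 to 53.4, 50.5 and 54.7 CPM under vehicle and from 67.4, 62.9 and 67.99 to 56.2, 56.4 and 52.97 CPM under DHT. Its log2 fold changes were -0.23 ± 0.057 and -0.26 ± 0.057 (adjusted p = 0.00344 and 0.00141), and the first was lost with upper-quartile scaling (-0.13, 0.0532). PNPLA2, adipose triglyceride lipase, which takes the first fatty acid off triglyceride, had CPM values of 53.8, 58.9 and 52.2 and 65.4, 54.2 and 65.4 under vehicle, and these overlapped (0.17 ± 0.078, adjusted p = 0.0928). It passed in 3 alternatives under vehicle: with upper-quartile scaling (0.27, 0.0142), with a mean of at least 1 CPM required (0.21, 0.0413) and without replicate 2 of the PXN siRNA group (0.24, 0.0117). Under DHT it passed with upper-quartile scaling (0.24, 0.0243). PLIN2 had 5 to 23 counts a library, too few to resolve a change (-0.48 ± 0.40 under vehicle, 95% interval -1.34 to 0.38).

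Most beta oxidation genes did not pass the test between the siRNAs. Of 8, 2 rose and 6 did not pass the test under vehicle, and under DHT 1 rose, 1 fell and 6 did not pass. Among all tested genes 23.9% rose and 26.3% fell under vehicle, and 25.0% and 26.7% under DHT. The rises of this role thus did not stand out from that background. The summed level of the 8 genes was 1742 ± 95.9 CPM with non-specific siRNA and 1784 ± 54.1 CPM with PXN siRNA under vehicle (mean ± SD, n = 3), and 1737 ± 68.7 and 1729 ± 59.3 CPM under DHT. CPT1A, the carnitine palmitoyltransferase that sets the pace of entry into mitochondria, lay at 422, 408 and 361 and 396, 426 and 378 CPM under vehicle. Its log2 fold change was 0.011 ± 0.074, with a 95% interval of -0.15 to 0.17, and under DHT it was -0.16 ± 0.074 (-0.32 to -0.00043, adjusted p = 0.0868). Under DHT it passed as lower without replicate 3 of non-specific siRNA with vehicle (-0.18, 0.0412), without replicate 3 of non-specific siRNA with DHT (-0.22, 0.0367) and without replicate 2 of PXN siRNA with vehicle (-0.18, 0.0495). The intervals of CPT2, ACADVL, HADHA and DECR1 lay between -0.26 and 0.26 under both treatments. CPT2 passed as lower under vehicle without replicate 2 of the non-specific siRNA group (-0.20, 0.0298). CPT2 moves the acyl group from carnitine back to coenzyme A inside mitochondria, HADHA carries the hydratase and dehydrogenase steps, and DECR1 handles double bonds. With upper-quartile scaling, 3 oxidation genes rose and 1 fell under DHT, ACADM and ACADVL being added to the calls.

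The 2 oxidation genes that rose under vehicle were ACADM, 1.17-fold, and HADHB, 1.15-fold. ACADM, the medium-chain acyl-CoA dehydrogenase, lay at 77.9, 64.6 and 79.7 CPM with non-specific siRNA and 85.04, 87.6 and 88.3 CPM with PXN siRNA. Replicate 2 with non-specific siRNA was the lowest of these 6 libraries, and without it the log2 fold change of 0.23 ± 0.075 (adjusted p = 0.0192) became 0.12 (0.146). Without replicate 1, 2 or 3 of the PXN siRNA group the call was lost too, with log2 fold changes of 0.23, 0.21 and 0.20 (adjusted p = 0.0536, 0.0621 and 0.0881), as it was without a low-count filter (0.21, 0.0559). ACADM shares 157 exon bases with RABGGTB on its own strand, which averaged 117 and 88.8 CPM under vehicle. HADHB, the thiolase subunit of the trifunctional protein, lay at 266, 214 and 238 and 278, 267 and 282 CPM under vehicle (0.20 ± 0.079, adjusted p = 0.0433), and at 234, 202 and 209.7 and 259, 241 and 258 CPM under DHT (0.23 ± 0.079, 0.0228). The groups did not overlap, by the narrow margin of 266.3 against 267 CPM under vehicle. The vehicle call was lost in 13 of 21 alternatives, among them 11 of the 12 that leave out 1 library: without replicate 2 with non-specific siRNA and vehicle it was 0.11 (0.279), and the other 10 gave adjusted p values of 0.0577 to 0.169. Under DHT the call was lost without any 1 of 5 libraries. Without replicate 2 with non-specific siRNA and DHT it was 0.16 (0.155); the other 4, replicate 3 of that group, replicate 3 of PXN siRNA and vehicle and replicates 1 and 3 of PXN siRNA and DHT, gave 0.0529 to 0.116.

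HADHA and HADHB are set side by side because they encode the subunits of 1 enzyme and lie head to head. HADHA had CPM values of 343, 299.9 and 314 and 287, 312 and 300.1 under vehicle, and the groups overlapped (-0.09 ± 0.067, adjusted p = 0.282). Per kb, HADHB was 43.4% ± 1.06 of the summed level of the pair with non-specific siRNA and 48.5% ± 1.60 with PXN siRNA under vehicle (SD in percentage points, n = 3). Under DHT the shares were 43.2% ± 0.493 and 48.5% ± 1.61, and no library with PXN siRNA was below 46.7%. The HADHA window at chr2:26244583-26244882 (GRCh38.p14, minus strand) shares 194 bases with that of HADHB on the other strand, and it is printed in lower case throughout because it holds none of the CCAAT, sterol, E-box or AGAACA letters.
HADHA: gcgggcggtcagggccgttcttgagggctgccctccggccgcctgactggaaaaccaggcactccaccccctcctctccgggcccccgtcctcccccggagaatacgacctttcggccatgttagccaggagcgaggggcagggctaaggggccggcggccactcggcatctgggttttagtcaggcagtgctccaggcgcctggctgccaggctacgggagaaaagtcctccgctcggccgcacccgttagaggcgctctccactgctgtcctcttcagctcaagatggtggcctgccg
It holds the GC box GGGCGG at 1 place, near its start, and the HADHB window holds it at 2.

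ECI2, an enoyl-CoA isomerase that moves double bonds so that unsaturated chains can be oxidised, did not pass the test under vehicle (-0.087 ± 0.11, adjusted p = 0.555). Under DHT it fell, from 88.2, 114 and 131 to 72.6, 82.2 and 85.8 CPM (-0.47 ± 0.11, 0.00304). Those groups did not overlap, with 88.2 CPM against 85.8 CPM at the closest. ECI2 lies at chr6:4115689-4135597 on the minus strand and shares 1242 exon bases with C6orf201 on the other strand, a gene with means of 0.298 to 0.607 CPM in the 4 groups.

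All 3 regulators fell under both treatments, where 26.3% of all tested genes fell under vehicle and 26.7% under DHT. SREBF1 went from 574, 654 and 529.7 to 436, 441 and 421 CPM under vehicle and from 634, 643 and 530.3 to 457, 488 and 425 CPM under DHT. Its PXN siRNA libraries lay below those with non-specific siRNA, and the log2 fold changes were -0.44 ± 0.089 and -0.40 ± 0.089 (adjusted p = 0.000940 and 0.00172). SREBF1 shares 556 exon bases with RAI1 on the opposite strand, which averaged 99.5 and 90.8 CPM under vehicle. PPARA, the nuclear receptor known for driving beta oxidation genes in liver, fell too. It lay at 27.3, 27.3 and 30.01 and 18.8, 19.9 and 20.7 CPM under vehicle (-0.51 ± 0.08, adjusted p = 0.000115), and at 31.9, 31.6 and 36.5 and 17.6, 19.2 and 20.4 CPM under DHT (-0.80 ± 0.08, 1.83e-06). PPARG, the receptor known for driving fat cell differentiation, lay at 5.39, 4.92 and 5.55 and 3.68, 3.36 and 4.44 CPM under vehicle (-0.46 ± 0.13, 0.00779), and at 4.77, 4.37 and 4.75 and 3.23, 3.32 and 3.81 CPM under DHT (-0.42 ± 0.13, 0.0145). The PPARG call under DHT was lost with upper-quartile scaling (-0.32, 0.0513).

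A wider list of 97 genes of the same pathways, none of them a member, gave 86 tested genes. With PXN siRNA 36 of them fell and 16 rose under vehicle (median log2 fold change -0.15), and 37 fell and 13 rose under DHT (median -0.19). The shares over all tested genes were 26.3% lower and 23.9% higher under vehicle, and 26.7% and 25.0% under DHT. Of its 7 further synthesis genes, 6 fell under vehicle and 5 under DHT. Of its 25 further oxidation genes, 10 fell and 5 rose under vehicle, and 11 fell and 5 rose under DHT, so this larger group held more falls than the 8 oxidation members did; that difference was not tested. ETFB, a subunit of the flavoprotein that takes electrons from acyl-CoA dehydrogenases, had a log2 fold change of -0.95 ± 0.088 under vehicle. Other falls with the smallest p were PPAP2A, a lipid phosphate phosphatase, at -1.44 ± 0.14, and INSIG1, which holds SREBP in the endoplasmic reticulum, at -1.21 ± 0.13. Under DHT, PCYT1A, the rate-limiting enzyme of phosphatidylcholine synthesis, had -0.83 ± 0.066, PPAP2A -1.55 ± 0.13 and INSIG1 -1.36 ± 0.13. Rises with the smallest p came from acyltransferases of glycerolipid assembly, AGPAT5 (0.77 ± 0.092 under vehicle and 0.67 ± 0.092 under DHT) and AGPAT9 (1.26 ± 0.16 and 1.46 ± 0.16). CDS2, a CDP-diacylglycerol synthase, rose under vehicle (0.42 ± 0.059), and CRAT, carnitine acetyltransferase, under DHT (0.59 ± 0.096).

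The next comparison asked which of these genes differed between DHT and vehicle in cells with non-specific siRNA. In the fit without a replicate block, ACSL3, ACACA and ECI2 rose, no member fell and 34 did not pass the test. Over all tested genes 2.72% rose and 2.16% fell. At an unadjusted p under 0.05 in that fit, 7 members were higher and 0 lower, against 1504 and 1562 of all 18468 tested genes. By DESeq2's Wald test or limma-voom 0 members fell. The replicate numbers paired these groups by the rule given below. With them as a block 9 members rose, 4 of them synthesis genes, and 0 fell, where 6.17% of all genes rose and 5.93% fell. The median log2 fold change of the members was 0.040, against -0.0096 over all tested genes. The luminal marker sum, which holds androgen-induced genes, was higher under DHT in all 3 libraries, as given above.

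ACSL3 showed the largest difference. Its CPM was 257, 244 and 229.5 under vehicle and 380.3, 539 and 568 under DHT. Replicate 1 was the lowest of the DHT libraries but still above every vehicle library, and the rise was 2.03-fold (1.02 ± 0.12, adjusted p = 0.000217). ACSL3 went from 17.1% ± 0.599 to 30.9% ± 5.96 of the summed level of the 4 ACSL genes per kb (SD in percentage points, n = 3), and ACSL1 from 82.03% ± 0.565 to 68.4% ± 5.95. The level of ACSL1 itself did not pass the test (-0.10 ± 0.079, adjusted p = 0.611). ACSL3 lies at chr2:222860934-222944639 on the plus strand. Its promoter window, chr2:222860786-222861085 (RefSeq, GRCh38.p14), is shown because it is the member with the largest DHT difference, again with a CCAAT box in capitals.
ACSL3: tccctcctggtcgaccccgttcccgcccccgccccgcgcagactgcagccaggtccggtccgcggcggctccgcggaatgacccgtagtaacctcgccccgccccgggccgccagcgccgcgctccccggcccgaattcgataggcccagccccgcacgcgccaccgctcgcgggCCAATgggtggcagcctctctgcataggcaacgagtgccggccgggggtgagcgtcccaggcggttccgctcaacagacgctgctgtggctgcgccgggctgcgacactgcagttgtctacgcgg
The window holds 1 CCAAT box, 3 GC boxes on the opposite strand and no AGAACA; these letters were searched only in these 300 bases.

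ACACA lay at 781, 872 and 819.9 CPM under vehicle and 972, 1132 and 1134 CPM under DHT. The groups did not overlap, and the rise was 1.31-fold (0.39 ± 0.10, adjusted p = 0.0426). That call was lost without replicate 1 or 3 of the vehicle group (0.36, 0.134, and 0.40, 0.104), without replicate 2 or 3 of the DHT group (0.36, 0.148, and 0.36, 0.153), and without replicate 3 of PXN siRNA with DHT (0.39, 0.0519). ECI2 lay at 81.8, 77.2 and 84.6 CPM under vehicle and 88.2, 114 and 131 CPM under DHT, without overlap (1.37-fold, 0.45 ± 0.11, adjusted p = 0.0324). The ECI2 call was lost without any 1 of the 3 vehicle libraries (adjusted p = 0.0816, 0.0918 and 0.0686 for replicates 1 to 3) and without replicate 2 or 3 of the DHT group (0.44, 0.117, and 0.32, 0.167). It was also lost when only these groups were fitted (0.46, 0.0688). In the fits that lost a call, the log2 fold changes of ACACA and ECI2 lay between 0.32 and 0.50.

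The synthesis genes FASN, ACLY and ACSS2 did not pass this test. FASN lay at 2546, 3316 and 3200.3 CPM under vehicle and 3136, 4541 and 4119 CPM under DHT, and the groups overlapped (0.38 ± 0.17, adjusted p = 0.273). Within each replicate number the DHT library was the higher one. With the replicate number as a block, FASN passed the test (0.37, adjusted p = 0.000524). In that fit 9 members rose and 0 fell, where 6.17% of all genes rose and 5.93% fell. The others added were ACLY (0.28, 0.00434), ACSS2 (0.17, 0.0193), LPIN1 (0.21, 0.0439), MGLL (0.28, 0.0367) and PPARA (0.24, 0.00904). So 4 of 6 synthesis genes rose with the block and 1 without it. ACLY, at 733, 738 and 773 CPM under vehicle and 865, 931 and 935 CPM under DHT, did not overlap between groups (0.28 ± 0.086, adjusted p = 0.0846). It also passed without replicate 1 or 2 of PXN siRNA with vehicle (adjusted p = 0.0446 and 0.0486), without replicate 1 of PXN siRNA with DHT (0.0437), without a low-count filter (0.0312), when only these groups were fitted (0.0334) and by DESeq2's Wald test (0.0173). ACLY, ACACA, FASN, ACSS2, FADS1 and LPIN1 were lowest in replicate 1 of all 4 groups, while SCD5, MGLL and HADHB were lowest in replicate 2 and DGAT1, CPT1A and SREBF1 in replicate 3.

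No desaturation gene passed the test for DHT. SCD had a log2 fold change of 0.04 ± 0.11 with a 95% interval of -0.20 to 0.28, and FADS2 of 0.074 ± 0.11 (-0.17 to 0.32). SREBF1 had 0.041 ± 0.089 (-0.15 to 0.23). In oxidation, the 7 genes other than ECI2 lay between -0.15 and 0.082. DGAT2 had -0.21 ± 0.10 (adjusted p = 0.307) and was the 1 member to pass as lower in this comparison in any fit made, the one without replicate 1 of the DHT group (-0.33, 0.0489).

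**Figure D4:**
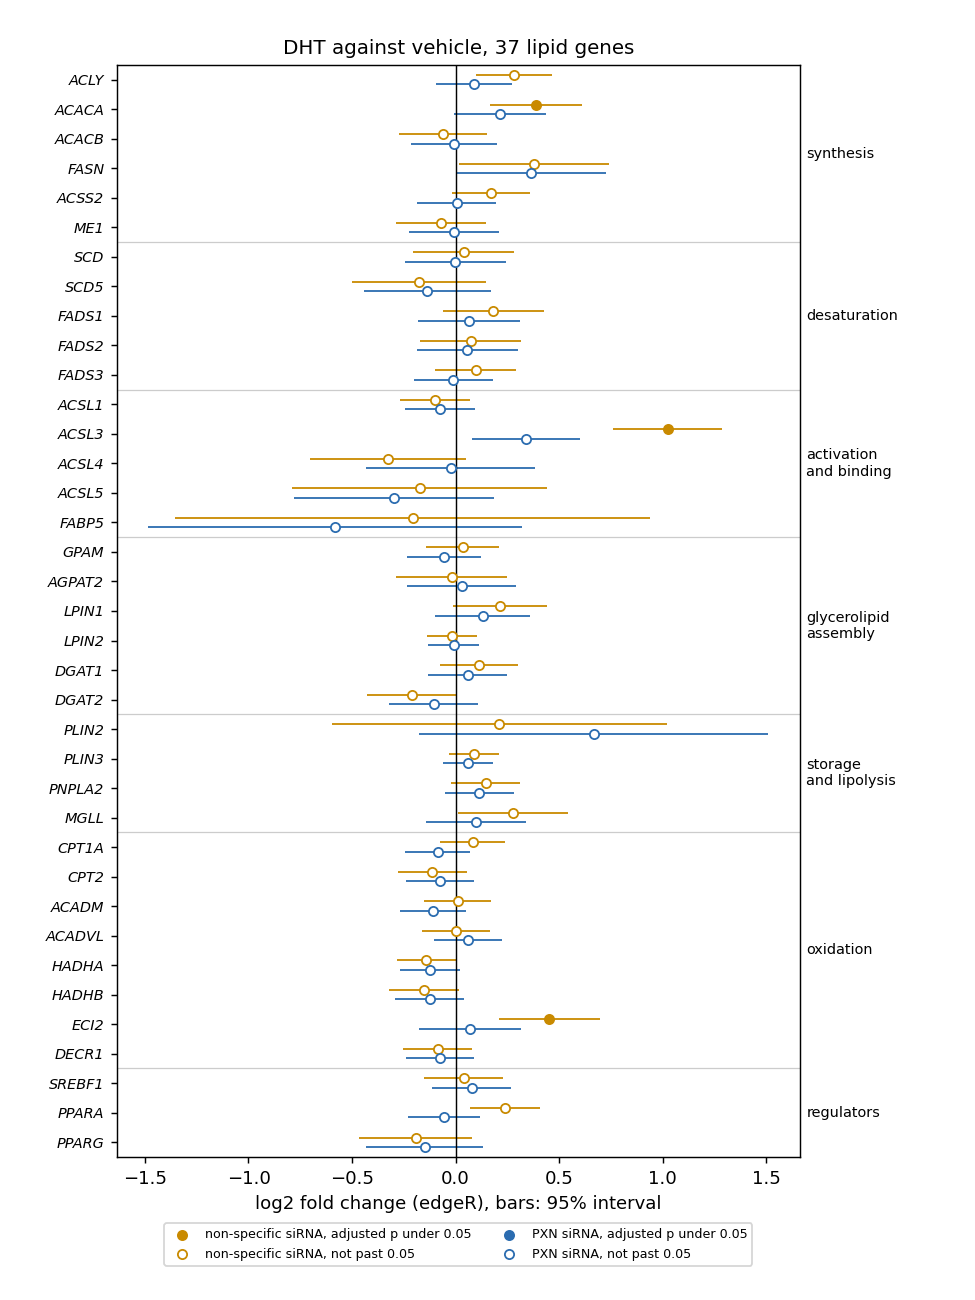
Log2 fold change of DHT against vehicle for the 37 genes by role, with non-specific siRNA (orange) and with PXN siRNA (blue), with 95% intervals from the fit. Filled points passed the test at an adjusted p under 0.05. The fit shown has no replicate block, and only ACACA, ACSL3 and ECI2 with non-specific siRNA are filled.

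Of the 86 tested genes of the wider list, 9 rose and 2 fell with DHT and non-specific siRNA (median 0.032). Over all tested genes 2.72% rose and 2.16% fell. MOGAT2, a monoacylglycerol acyltransferase, had 3.09 ± 0.55, but from 0.175, 0.108 and 0.115 CPM to only 0.567, 1.38 and 1.52 CPM. PPAP2A went from 199.5, 184 and 161 to 293, 299.6 and 300.1 CPM (0.71 ± 0.13, adjusted p = 0.00529). SLC25A20, the mitochondrial carrier of acylcarnitines, went from 24.2, 23.2 and 21.8 to 29.2, 28.9 and 30.5 CPM (0.36 ± 0.069, 0.00707). All 3 were without overlap. The falls were THRSP, a lipogenic regulator that went from 1.78, 1.08 and 1.38 to 0.624, 0.443 and 0.535 CPM (-1.40 ± 0.30, 0.0141), and EHHADH, a peroxisomal oxidation enzyme (-0.39 ± 0.099, 0.0358).

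With PXN siRNA no member passed the test for DHT, in either direction, by edgeR, by DESeq2's Wald test or by limma-voom. Over all tested genes 0.184% rose and 0% fell, with 905 higher and 473 lower at an unadjusted p under 0.05. DESeq2 called 143 genes and limma-voom 24 in either direction. The 2 members under an unadjusted 0.05 were ACSL3 and FASN. ACSL3 went from 183, 199 and 173 to 207, 248 and 248 CPM, without overlap (0.34 ± 0.12, 95% interval 0.078 to 0.60, adjusted p = 0.472). FASN went from 936, 1277 and 1303 to 1174, 1753 and 1601 CPM, with overlap (0.37 ± 0.17, 0.667). FASN was the 1 member that passed with the replicate block (0.36, adjusted p = 0.00527), where 1.35% of all genes rose and 0.525% fell. The median log2 fold change of the members was -0.0065, the same as that of all tested genes at 2 digits.

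Whether the DHT effect differed between the siRNAs was tested by the interaction. No member passed, nor did any of the 18468 genes (0% called); 778 genes and 3 members, ACSL3, PPARA and ECI2, were under an unadjusted p of 0.05. ACSL3 had the smallest p of the members, with an interaction of -0.69 ± 0.17 on the log2 scale (95% interval -1.05 to -0.32, unadjusted p = 0.00132, adjusted p = 0.609). It passed in 3 of the alternatives: without a low-count filter (-0.69, 0.0127), by DESeq2's Wald test (-0.69, 0.0297) and without replicate 1 of non-specific siRNA with DHT (-0.84, 0.00909). Over all genes DESeq2 called 37 interactions and limma-voom 0. PPARA had -0.30 ± 0.11 (0.0199 unadjusted) and ECI2 -0.38 ± 0.16 (0.0316). For FASN, whose DHT differences were 0.38 and 0.37, the interaction was -0.015 ± 0.24 with a 95% interval of -0.53 to 0.50.

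**Figure D5:**
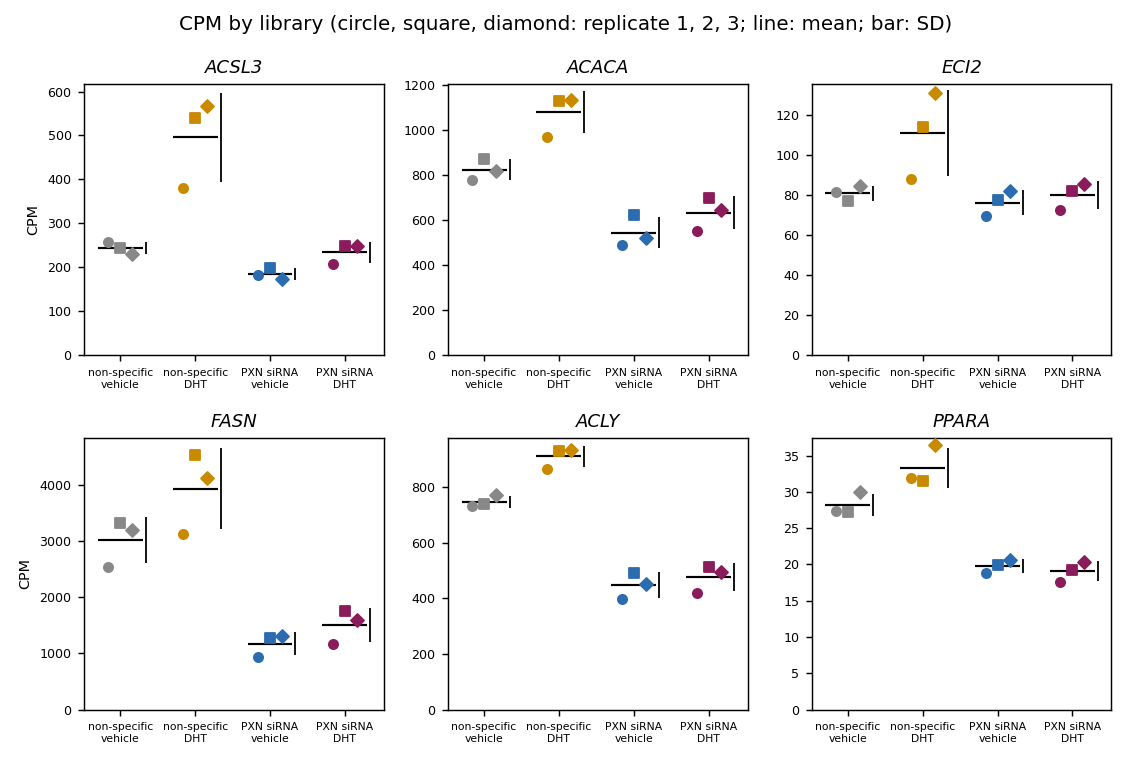
CPM in each library for ACSL3, ACACA and ECI2, which passed the DHT test with non-specific siRNA, and for FASN, ACLY and PPARA, which passed it there with the replicate block but not in the test as first described. Columns are the 4 groups, symbols the replicates, lines the means and vertical bars the SD; every axis starts at 0. ACSL3 with DHT and non-specific siRNA lies at 380.3 to 568 CPM, and all its other libraries lie at or below 257 CPM.

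Across the promoter windows, 31 of the 37 members were matched, with 53 windows. The sterol response element letters TCACNCCAC occurred in 3.77% of member windows (ACSL1 and PNPLA2) and in 1.13% of all 35116 windows. The GC box GGGCGG occurred in 66.0% and 45.0%, the CCAAT box in 30.2% and 34.6%, the E-box CACGTG in 3.77% and 7.26%, and AGAACA in 3.77% (ACSL1 and ACSL5) and 14.8%. Both strands were searched, and overlapping matches of different motifs were each counted. A match is a description of the letters and not a site.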

How the data were processed

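Values are whole-number counts per gene that the authors deposited for 12 libraries. Per the labels' protocols, the kits were RNeasy Plus Mini for RNA and TruSeq Stranded mRNA for libraries; Trimmomatic 0.32, STAR 2.4.2a, featureCounts of Subread 1.5.0p3 and GRCh38 are named in the submitters' processing notes. The sources used here do not give the annotation, the strand setting, how multiply mapped reads were handled or the siRNA sequences, so values of overlapping genes are less certain: 18 members share exon bases with another GENCODE 29 gene, 16 of them on the opposite strand.

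Counts were fitted with edgeR 4.0.16 in R 4.3.3: filterByExpr kept 18468 genes, TMM scaled the libraries, and 1 quasi-likelihood model with 4 group means held all 12 libraries (8 residual degrees of freedom). Tests were two-sided, with Benjamini-Hochberg adjustment over all tested genes and a call at 0.05. The SE is the log2 fold change divided by the square root of F. CPM use TMM-scaled library sizes; levels between genes are per kb of merged GENCODE 29 exons. The fit was tried on simulated counts with few changed genes, the same dispersion for all genes and no replicate effect. These settings differ from the data here, so that was a check of the code and not of the calls. No replicate pair agreed within sampling noise (chi-square per gene 6.51 to 27.6). Library values were named, by rule, for up to 3 members a role and contrast with the smallest p and for those against their role's direction, and up to 3 other pathway genes a contrast and direction. The members, the lists and the rule were chosen with earlier results of these data known.

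Replicate numbers come from the labels, which do not say what they mark. They were taken to pair groups where deviations from group means correlated over 0.1 in every pair: PXN siRNA under vehicle (0.121 to 0.210), the DHT effect with non-specific siRNA (0.145 to 0.383) and the DHT effect with PXN siRNA (0.1004 to 0.307). PXN siRNA under DHT (0.0769 to 0.284) and the interaction (-0.026 to 0.383) did not meet this. Alternatives were DESeq2 1.42.0 size factors and Wald test, upper-quartile scaling, 2 other low-count filters, limma-voom (limma 3.58.1), a replicate block, only the 2 groups compared, leaving out mitochondrially encoded genes or 1 library, an adjusted p of 0.01 and a test against a 1.5-fold change. Promoters came from RefSeq (GRCh38.p14). Figures used matplotlib 3.10.9.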

Additional observations from a re-analysis of the deposited data

How the results depend on the processing

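Over 23 alternatives and 5 comparisons, 4082 of 4198 recomputed member results kept their direction, where called, and their side of the threshold. Of the rest 81 lost a call, 35 gained one and none reversed. DHT with PXN siRNA and the interaction had no member call to lose, and made up 847 and 805 of the results kept. DHT with non-specific siRNA, with 3 calls, lost a call in 16 recomputed results. Leaving aside the 2 stricter thresholds, 21 of the 25 calls of PXN siRNA under vehicle and 23 of the 25 under DHT held in all 21 alternatives. Tested against a 1.5-fold change, 2 members were higher and 5 lower with PXN siRNA under vehicle, and 2 higher and 7 lower under DHT. For DHT with non-specific siRNA 0 were higher. Of all 18468 tested genes 1957, 2234 and 79 passed that test in these comparisons, in either direction. At an adjusted p of 0.01, 1 member was higher for DHT with non-specific siRNA, where 406 of all genes passed. Upper-quartile scaling gave 10 higher members with PXN siRNA under DHT, where 32.2% of all genes rose. The median log2 fold change of all genes was 0.13 with it. The cause of that shift was not tested. With the replicate block, 9 members were higher for DHT with non-specific siRNA and 1 for DHT with PXN siRNA. The shares of all genes higher there were 6.17% and 1.35%. For PXN siRNA under DHT, where the numbers did not pair, the block gave 7 higher and 20 lower members (LPIN2 and CPT1A added). In that comparison 29.1% of all genes were higher and 29.8% lower. For the interaction it gave 0 members, where 0.314% of all genes passed. The block changed no other member's call than those given. The interaction had 1 lower member, ACSL3, without a low-count filter and by DESeq2's Wald test; the cause was not tested. Leaving out 1 library at a time gave 5 to 7 higher and 18 to 19 lower members for PXN siRNA under vehicle. Under DHT it gave 5 to 6 and 19 to 20. For DHT it gave 1 to 4 higher and 0 to 1 lower with non-specific siRNA and 0 with PXN siRNA. For the interaction it gave 0 to 1 lower. Fewer libraries then enter the fit. These fits tested 18830 to 18943 genes. With PXN siRNA 7796 to 9431 of them passed under vehicle, in either direction, and 8276 to 9890 under DHT. For DHT 416 to 1361 passed with non-specific siRNA and 10 to 80 with PXN siRNA, and for the interaction 0 to 45. Depth limits FABP5 and PLIN2, with fewer than 50 counts in every library, and to a lesser degree ACSL5.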
